A study of Homo sapiens with 12 samples.

Results

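The proteasome genes of this data set are the genes named PSMA to PSMG with a number, plus the assembly factor POMP. They were chosen by gene symbol from the array's platform annotation, among probe sets with a single gene, and no measured value entered the choice. The rule found 42 genes with 66 probe sets, of 11963 genes with 19064 probe sets in all. By role, 16 are subunits of the proteolytic core (PSMA, PSMB), 5 are ATPases (PSMC), 12 are non-ATPase subunits and chaperones of the regulatory particle (PSMD), and 7 are activators, an inhibitor and chaperones of the core. The other 2 have symbols that extend those of PSMC3 and PSME3. PSMC3IP encodes a recombination protein and PSME3IP1 a protein that binds the activator PSME3. Counts are therefore also given over the other 40.

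The measurements are of RNA that came down with eIF4E, which holds the capped end of messenger RNAs and recruits them for translation. The cells were MDA-MB-231, an established human triple-negative breast cancer line, and the labels name no gene transfer or genetic change in any group. The 4 groups of 3 arrays are untreated cells precipitated with control IgG, cells given 2 Gy of X-rays, taken 6 h later and precipitated with IgG, untreated cells precipitated with an eIF4E antibody, and irradiated cells precipitated with that antibody. The series design calls the replicates biological, and nothing in the labels says which precipitates shared a culture, so p-values measure the spread between these arrays. The comparisons ask which RNAs were higher with eIF4E than in the IgG background and whether irradiation altered this.

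The proteasome degrades proteins tagged with ubiquitin. Its core is a barrel of stacked rings: outer alpha rings (PSMA) gate the entrance, and inner beta rings (PSMB) hold the active sites. A regulatory particle caps the barrel. Its base contains a ring of ATPases (PSMC) that unfolds substrates and pulls them in, with large scaffold subunits and ubiquitin receptors, and its lid (PSMD) removes the ubiquitin chains. Dedicated chaperones assemble core and base separately, and interferon-inducible catalytic subunits replace the standard ones in the immunoproteasome, which makes peptides for antigen presentation. Cells raise the transcription of many subunits together when proteasome activity falls short, largely through the factor NRF1 (gene NFE2L1), which binds antioxidant response elements.

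Promoter sequences of these genes are shown because many proteasome genes are known to be regulated together through this element, and the members differ in whether their promoters hold it. RefSeq promoter windows (GRCh38.p14, from 250 bases before to 50 bases after the start) matched 37 of the 42 genes by gene identifier. The core of the antioxidant response element was searched on both strands as TGACNNNGC, where N is any base. The following lines show it in the promoters of 6 members, 5′ to 3′ on the strand of the gene, with the matched letters in capitals. PSMA4 and PSMB3 are standard core subunits, PSMB9 an immunoproteasome subunit, PSMD3 a lid subunit, PSMG2 a core chaperone and PSME4 an activator.
PSMA4: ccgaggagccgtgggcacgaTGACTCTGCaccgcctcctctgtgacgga
PSMB3: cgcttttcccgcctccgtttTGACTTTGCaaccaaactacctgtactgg
PSMB9: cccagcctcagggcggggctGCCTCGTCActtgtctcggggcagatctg
PSMD3: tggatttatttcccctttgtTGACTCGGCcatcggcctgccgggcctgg
PSMG2: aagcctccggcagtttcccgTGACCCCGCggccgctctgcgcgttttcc
PSME4: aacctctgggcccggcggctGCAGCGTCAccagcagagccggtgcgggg
In PSMB9 and PSME4 the match reads on the opposite strand of the gene. The stretches lie at chr15:78540640-78540688 (PSMA4, plus strand), chr17:38752617-38752665 (PSMB3, plus), chr6:32854024-32854072 (PSMB9, plus), chr17:39980750-39980798 (PSMD3, plus), chr18:12658679-12658727 (PSMG2, plus) and chr2:53970999-53971047 (PSME4, minus). Each lies upstream of the start site of its window. PSMA4 has several starts in RefSeq, and its stretch lies before the last of them, inside the gene as counted from the first. The distance from the match to the start was 126 bases in PSMA4, 104 in PSMB3, 148 in PSMB9, 37 in PSMD3, 39 in PSMG2 and 34 in PSME4. A gene was counted when any of its windows held the letters. The element was found in 13 of the 37 members (35.1%), in 20.8% of 6055 tested genes with a promoter and in 16.1% of all 27305 genes with one. The CCAAT box, its letters also searched on both strands, was found in 19 of 37 members (51.4%), in 45.1% of tested genes and in 39.7% of all genes. A match of letters describes the window and is not a measured binding site.

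The deposited values are relative. Each array was scaled to a common mean (trimmed means of 499.8 to 499.9), so a gene that is higher or lower with eIF4E is so in relation to the rest of its array. Alu repeats, common in introns and intergenic RNA, gave a signal of 13482 to 18476 in the 6 eIF4E precipitates and 36876 to 53246 in the 6 IgG precipitates. The 3′ to 5′ ratio of the actin control, a measure of RNA length, lay between 1.33 and 1.53 with eIF4E but between 2.96 and 5.38 with IgG. For GAPDH it was 1.13 to 1.31 and 2.03 to 2.78 respectively. Hybridization controls were 6.09-fold and poly-A controls 65.9-fold higher with IgG. Each of these 5 measures separated the antibodies completely (exact two-sided permutation test of geometric means, p = 0.00216, the smallest that 6 against 6 arrays allow), and their part in the differences below was not tested. Of the marker genes, all 10 markers of MDA-MB-231 were above the filter on dim genes, 4 of 9 luminal markers passed it while ESR1, PGR, FOXA1, CDH1 and TFF1 did not, and of 35 liver, leukocyte, neuron and muscle markers 3 were above it, with a median signal per array of 10.1 to 26.4 (IgG) and 13.3 to 24.1 (eIF4E). Of 7178 genes bright enough to be tested, 32.5% were higher and 38.2% lower with eIF4E over both treatments, 70.7% in either direction, with a median log2 difference of -0.07. All 42 proteasome genes passed the filter.

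Proteasome genes were mostly higher with eIF4E, and the share differed between the core and the regulatory particle. Averaged over untreated and irradiated cells, 25 of 42 were higher and 7 were lower at an adjusted p under 0.05, and 10 did not pass (limma, Benjamini-Hochberg over all genes tested). Their median log2 difference was 0.46. Without PSMC3IP and PSME3IP1, 25 of 40 were higher and 5 lower (median 0.48). The core and its chaperones accounted for 18 of the 25: of these 19 genes 18 were higher and 0 lower (median 0.78). Of the 14 subunits of the regulatory particle among the members, 4 were higher, 4 lower and 6 not called, with a median of 0.14. The difference between these classes was not tested. SEM1, a small subunit of the regulatory particle, and the ubiquitin receptor ADRM1 fall outside the symbol rule and these counts. Both were higher, at 0.79 and 1.46. Arrays of both antibodies did not overlap for 27 of the 42 members, against 49.9% of all genes tested. When the arrays were rescaled to their hybridization controls instead, the median of all genes moved from -0.07 to 2.34, 96.3% of all genes were higher and 0% lower, and all 42 members were higher with a median of 3.06. The directions below hold for the deposited scaling.

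**Figure D1:**
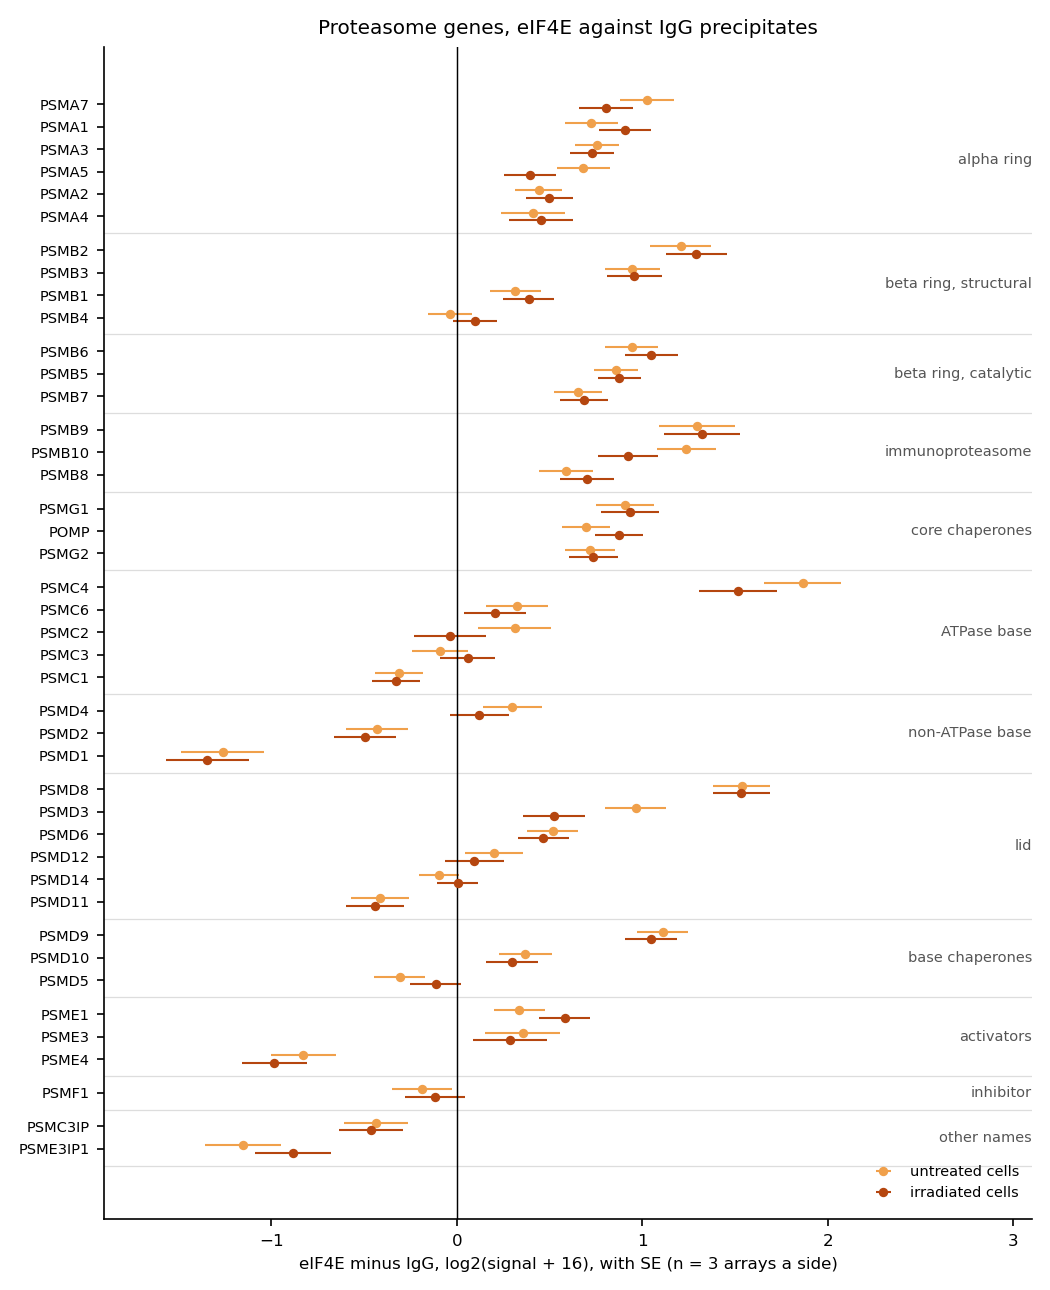
Difference between eIF4E and IgG precipitates for each of the 42 genes, ordered by role, on the log2(signal + 16) scale of the deposited scaling, with the standard error of the fit and 3 arrays a side. Light points are untreated and dark points irradiated cells. All core genes but PSMB4 and all core chaperones sit right of 0, while genes of the ATPase base, the non-ATPase base and the lid lie on both sides. Rescaled to the hybridization controls, every member would lie right of 0 in the mean of both treatments.

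The 6 alpha ring genes were all higher with eIF4E, by 0.43 to 0.92 (log2) over both treatments. On the probe set used for each gene, no eIF4E array overlapped an IgG array. A brighter probe set of PSMA1 did overlap (IgG up to 9680, eIF4E from 9243), and another did not. PSMA7 stood at the upper end on the probe set used for it. Probe sets ending in _x_at were used only where a gene had no other. Its signals were 2886, 2611 and 3040 on the untreated IgG arrays and 2471, 3467 and 2738 on the irradiated IgG arrays. With eIF4E they were 5256, 5929 and 6264 in untreated and 5748, 4683 and 4683 in irradiated cells. All 6 eIF4E values were above the highest IgG value, and the difference was 0.92 ± 0.10 (SE, 6 arrays a side; adjusted p = 6.89e-07). Its other probe set, which ends in _x_at and is brighter, was at 0.35. There the arrays overlapped, with IgG signals up to 12027 and eIF4E signals from 10911. The mean of both probe sets was 0.63, below PSMA3 at 0.74 and PSMA1 at 0.66 taken the same way. PSMA4 stood at the lower end. PSMA4 had IgG signals of 3226, 4637 and 4529 in untreated and 2833, 4532 and 3874 in irradiated cells. PSMA4 had eIF4E signals of 5213, 5886 and 5225 in untreated and 5413, 5095 and 4669 in irradiated cells. The lowest eIF4E value of PSMA4 lay only just above the highest IgG value, and the difference was 0.43 ± 0.12 (adjusted p = 0.00451). Between them stood PSMA1 at 0.82, PSMA3 at 0.74, PSMA5 at 0.54 and PSMA2 at 0.47.

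Of the 4 structural beta ring genes, which carry no active site, 3 were higher. PSMB2 stood at the upper end on its brightest probe set. PSMB2 had IgG signals of 3885, 2692 and 2877 in untreated and 3557, 3165 and 2413 in irradiated cells. PSMB2 had eIF4E signals of 7877, 6678 and 7091 in untreated and 7901, 6777 and 7494 in irradiated cells. Every eIF4E array was far above every IgG array, a difference of 1.25 ± 0.12 (2.38-fold, adjusted p = 6.99e-08). Its other probe set was at 0.39, and the mean of both was 0.82, below PSMB3. PSMB4 was the 1 core gene with no call. PSMB4 had IgG signals of 6799, 6592 and 6656 in untreated and 6602, 6936 and 6055 in irradiated cells. PSMB4 had eIF4E signals of 7424, 5936 and 6271 in untreated and 7315, 7048 and 6596 in irradiated cells. Both antibodies gave overlapping values for PSMB4, with a difference of 0.03 ± 0.09 (adjusted p = 0.761). PSMB3 was higher by 0.95 ± 0.11 and PSMB1 by 0.35 ± 0.10. The arrays of both antibodies overlapped for PSMB1, and its call was lost when all its probe sets were averaged, at 0.08 (adjusted p = 0.570). That average includes a probe set under the filter, with signals of 54.3 or less on all 12 arrays. Both PSMB1 probe sets above the filter, each tested by itself, were higher, at 0.35 (adjusted p = 0.00453) and 0.37 (adjusted p = 0.000962).

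The 3 standard catalytic subunits were all higher, by 0.67 to 1.00. PSMB6 carries the caspase-like activity. PSMB6 had IgG signals of 4673, 3322 and 3578 in untreated and 4620, 3757 and 3897 in irradiated cells. PSMB6 had eIF4E signals of 8222, 6643 and 7257 in untreated and 8626, 8125 and 8598 in irradiated cells. The groups were well apart, and the difference of 1.00 ± 0.10 was 1.99-fold (adjusted p = 2.21e-07). PSMB7 carries the trypsin-like activity. PSMB7 had IgG signals of 4527, 3664 and 3873 in untreated and 4500, 3948 and 4039 in irradiated cells. PSMB7 had eIF4E signals of 6998, 5874 and 6119 in untreated and 7305, 6219 and 6561 in irradiated cells. No arrays overlapped between antibodies for PSMB7, at 0.67 ± 0.09 (adjusted p = 5.81e-06). PSMB5, with the chymotrypsin-like activity that proteasome inhibitors used in the clinic target first, was higher by 0.87 ± 0.08.

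The immunoproteasome subunits were higher as well, by 0.65 to 1.31 with a median of 1.08. PSMB9, which replaces PSMB6, had the largest difference of any core gene. PSMB9 had IgG signals of 677, 924 and 1135 in untreated and 739, 907 and 916 in irradiated cells. PSMB9 had eIF4E signals of 1674, 2708 and 2388 in untreated and 1753, 2391 and 2357 in irradiated cells. The first replicate was the lowest of its group in all 4 groups, yet every eIF4E value exceeded every IgG value, at 1.31 ± 0.15 (2.47-fold, adjusted p = 5.98e-07). PSMB8, which replaces PSMB5, stood at the other end. PSMB8 had IgG signals of 1139, 1122 and 1228 in untreated and 887, 1233 and 1235 in irradiated cells. PSMB8 had eIF4E signals of 1668, 1856 and 1750 in untreated and 1699, 1792 and 1941 in irradiated cells. The antibodies did not overlap for PSMB8 either, at 0.65 ± 0.10 (adjusted p = 2.94e-05). PSMB10, which replaces PSMB7, was higher by 1.08 ± 0.11.

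The 3 chaperones of core assembly were all higher, by 0.73 to 0.92. PSMG1 and PSMG2 form a pair that starts the alpha ring. For PSMG1 the IgG signals were 1957, 2458 and 2429 in untreated and 1710, 2506 and 2497 in irradiated cells. The eIF4E signals of PSMG1 were 4138, 4479 and 4196 in untreated and 3745, 4589 and 4379 in irradiated cells. Its groups did not overlap, with a difference of 0.92 ± 0.11 (adjusted p = 1.57e-06). For PSMG2 the IgG signals were 5453, 5606 and 5873 in untreated and 5026, 5947 and 7236 in irradiated cells. The eIF4E signals of PSMG2 were 9518, 8531 and 9847 in untreated and 10363, 10064 and 9617 in irradiated cells. All eIF4E values were higher than all IgG values, at 0.73 ± 0.09 (adjusted p = 3.4e-06). POMP, which guides the beta ring onto the alpha ring and is itself degraded by the finished particle, was higher by 0.78 ± 0.09.

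**Figure D2:**
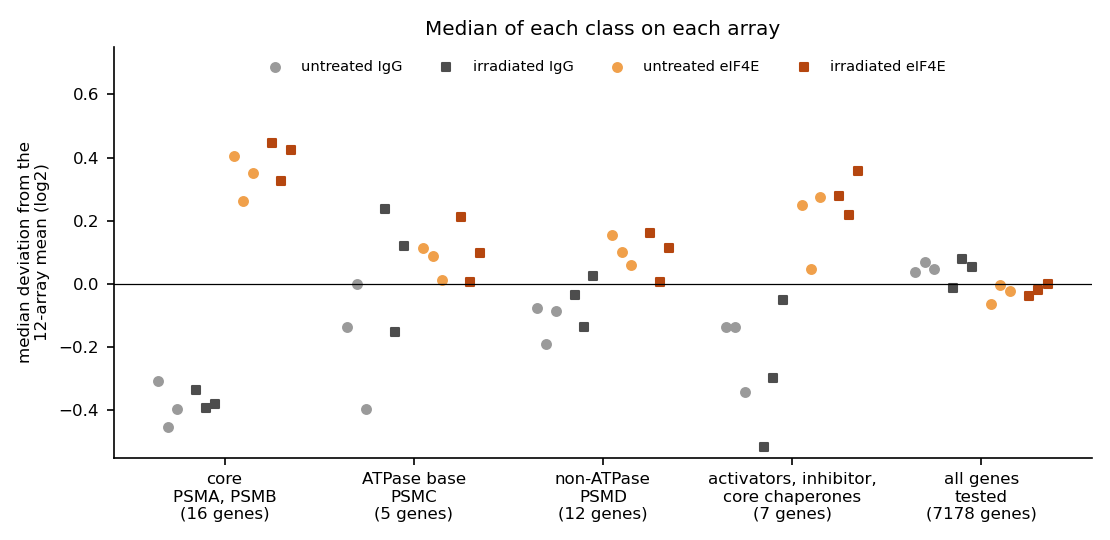
Median, over the genes of a class, of each gene's log2 deviation from its mean over all 12 arrays, shown for every array. Points are arrays and colours are the 4 groups. Core genes sit at -0.45 to -0.31 on the IgG arrays and at 0.26 to 0.45 on the eIF4E arrays, while the ATPase base overlaps between antibodies.

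The ATPases of the base did not move together. Of 5, 1 was higher, 1 lower and 3 were not called. PSMC4 had the largest difference of all 42 genes. PSMC4 had IgG signals of 486, 364 and 455 in untreated and 468, 766 and 364 in irradiated cells. PSMC4 had eIF4E signals of 1644, 1654 and 1542 in untreated and 1659, 1329 and 1474 in irradiated cells. The second irradiated IgG array was the highest of the IgG arrays and still far below every eIF4E array, and the difference was 1.69 ± 0.15 (3.23-fold, adjusted p = 3.74e-08). PSMC1 stood at the other end. PSMC1 had IgG signals of 5400, 4317 and 4513 in untreated and 5359, 4150 and 5162 in irradiated cells. PSMC1 had eIF4E signals of 3785, 3860 and 3754 in untreated and 3932, 3763 and 3912 in irradiated cells. Every eIF4E value was below every IgG value, but the difference was small, at -0.32 ± 0.09 (adjusted p = 0.00557), was lost with median centring (-0.21, adjusted p = 0.0583) and reversed to 2.27 with rescaling to the hybridization controls. PSMC6 at 0.27, PSMC2 at 0.14 and PSMC3 at -0.02 did not pass. For PSMC6 (adjusted p = 0.0528), leaving out 1 array was enough to pass: 0.31 without untreated IgG replicate 2, and 0.32 without irradiated IgG replicate 1 or without irradiated IgG replicate 3.

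Of the 3 non-ATPase subunits of the base, 2 were lower and 1, PSMD4, was not called on its brightest probe set. PSMD1, one of its large scaffold subunits, had the lowest difference of all 42 genes on the probe sets used for the genes. As a mean of probe sets it stood at -0.99, above PSME4 at -1.12 and PSME3IP1 at -1.02. PSMD1 had IgG signals of 3386, 2934 and 2531 in untreated and 5597, 2459 and 3594 in irradiated cells. PSMD1 had eIF4E signals of 1260, 1136 and 1242 in untreated and 1743, 1372 and 1235 in irradiated cells. All eIF4E values were below all IgG values, at -1.30 ± 0.16 (0.405 of the IgG level, adjusted p = 1.59e-06), which became 1.28 with rescaling to the hybridization controls. PSMD2, the other scaffold, was lower at -0.46 ± 0.12 (adjusted p = 0.00222), with overlapping arrays and 2.14 after that rescaling. PSMD4, a ubiquitin receptor, stood at the upper end, and its probe sets did not give the same call. PSMD4 had IgG signals of 3819, 3006 and 2984 in untreated and 4867, 3135 and 3447 in irradiated cells. PSMD4 had eIF4E signals of 4192, 3970 and 3848 in untreated and 4306, 3694 and 4251 in irradiated cells. On this brightest probe set the first irradiated IgG array exceeded all eIF4E arrays, and the difference was 0.21 ± 0.11 (adjusted p = 0.107). PSMD4 had 2 other probe sets above the filter. Each, tested by itself, was higher, at 0.71 (adjusted p = 6.02e-05) and 0.35 (adjusted p = 0.00462). The mean of all its probe sets was 0.28 (adjusted p = 0.0593). That mean includes a further probe set under the filter, with signals of 26.0 or less on every array. The brightest probe set passed without irradiated IgG replicate 1 (0.30) and without untreated IgG replicate 1 (0.27).

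The 6 lid genes spread over both directions: 3 were higher, 1 lower and 2 not called. PSMD8, the last subunit to join the lid in its assembly, stood at the upper end. PSMD8 had IgG signals of 2409, 1975 and 2505 in untreated and 1763, 2704 and 2165 in irradiated cells. PSMD8 had eIF4E signals of 6561, 6488 and 6918 in untreated and 5733, 6625 and 6678 in irradiated cells. The lowest eIF4E array was above the highest IgG array by a wide margin, at 1.53 ± 0.11 (2.90-fold), with the smallest adjusted p of the members (3.93e-09). PSMD11, a scaffold of the lid, was the lid gene that was lower. PSMD11 had IgG signals of 5080, 3976 and 4469 in untreated and 3314, 4752 and 3705 in irradiated cells. PSMD11 had eIF4E signals of 3084, 3247 and 3807 in untreated and 2595, 2735 and 3275 in irradiated cells. The arrays overlapped, and the difference of -0.43 ± 0.11 (adjusted p = 0.00255) became 2.17 with rescaling to the hybridization controls. PSMD3 was higher by 0.74 ± 0.12 and PSMD6 by 0.49 ± 0.10. PSMD14, the deubiquitinase of the lid, and PSMD12 did not pass, at -0.05 ± 0.08 and 0.15 ± 0.11.

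The chaperones of base assembly divided too, with 2 of 3 higher. PSMD9 led them. PSMD9 had IgG signals of 1749, 1612 and 1458 in untreated and 1417, 1475 and 1664 in irradiated cells. PSMD9 had eIF4E signals of 3424, 3452 and 3544 in untreated and 2610, 3454 and 3451 in irradiated cells. The groups were clearly apart, at 1.08 ± 0.10 (adjusted p = 6.24e-08). The mean with its dimmer probe set was 0.44 (adjusted p = 0.00395). PSMD10, also known as gankyrin, was higher by 0.33 ± 0.10, with overlapping arrays. PSMD5 stood lowest. PSMD5 had IgG signals of 1354, 1067 and 1060 in untreated and 971, 1073 and 1063 in irradiated cells. PSMD5 had eIF4E signals of 918, 933 and 935 in untreated and 1041, 917 and 914 in irradiated cells. The groups overlapped, at -0.21 ± 0.10 (adjusted p = 0.0636), and PSMD5 passed as lower without irradiated IgG replicate 1 (-0.23) or without irradiated eIF4E replicate 1 (-0.24).

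**Figure D3:**
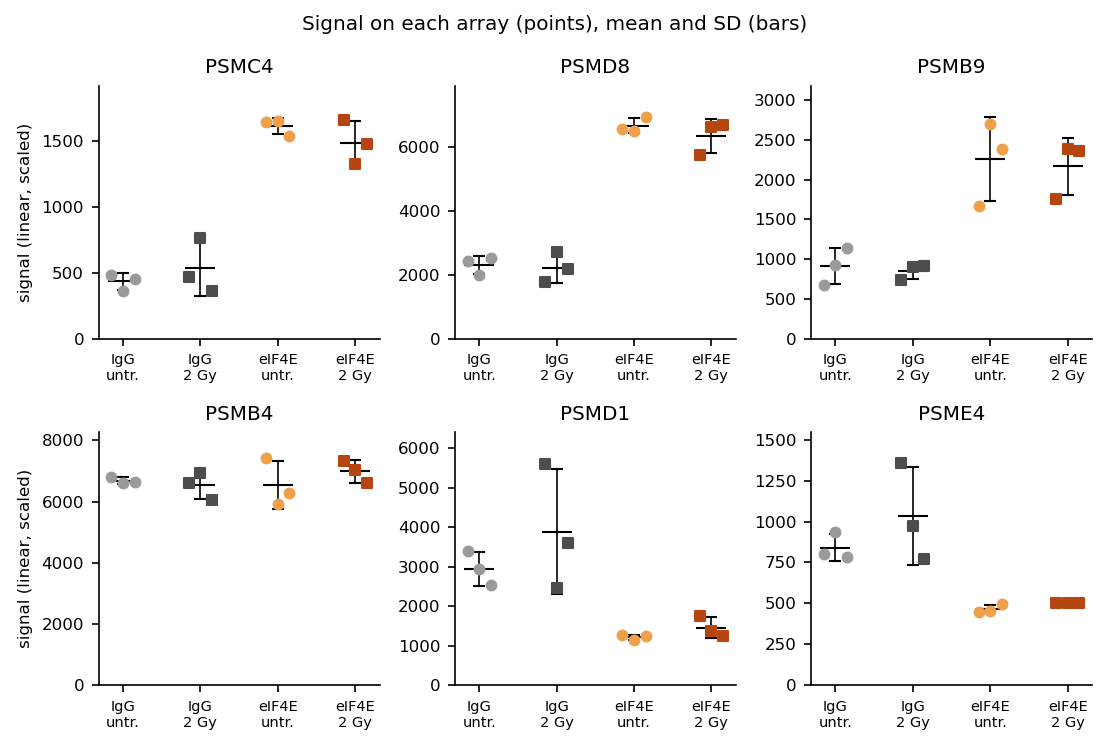
Deposited signal of 6 genes on each of the 12 arrays, on a linear axis from 0, with the mean and SD of each group of 3. PSMC4, PSMD8 and PSMB9 are higher and PSMD1 and PSME4 lower on all 6 eIF4E arrays than on any IgG array, while PSMB4 overlaps. These directions are those of the deposited scaling, and PSMD1 and PSME4 turn higher when rescaled to the hybridization controls.

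Activators and the inhibitor, which bind the core in place of or beside the regulatory particle, shared no direction. PSME1, a subunit of the interferon-inducible activator, was higher. PSME1 had IgG signals of 4415, 5033 and 5289 in untreated and 3972, 5396 and 4398 in irradiated cells. PSME1 had eIF4E signals of 6506, 5471 and 6652 in untreated and 6927, 6448 and 7095 in irradiated cells. The lowest eIF4E value barely exceeded the highest IgG value, and the difference was 0.46 ± 0.10 (adjusted p = 0.000506). PSME4, a large nuclear activator, was lower. PSME4 had IgG signals of 803, 934 and 780 in untreated and 1358, 970 and 773 in irradiated cells. PSME4 had eIF4E signals of 449, 450 and 495 in untreated and 503, 500 and 501 in irradiated cells. The eIF4E arrays were tightly grouped below all IgG arrays, at -0.91 ± 0.12 (0.534 of the IgG level, adjusted p = 6.12e-06), which became 1.64 with rescaling to the hybridization controls. The inhibitor PSMF1 did not pass. PSMF1 had IgG signals of 900, 780 and 931 in untreated and 850, 638 and 959 in irradiated cells. PSMF1 had eIF4E signals of 796, 810 and 678 in untreated and 704, 801 and 722 in irradiated cells. These overlapped, at -0.15 ± 0.11 (adjusted p = 0.241).

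The genes with extended symbols, PSME3IP1 and PSMC3IP, were both lower. PSME3IP1 had IgG signals of 602, 422 and 617 in untreated and 391, 492 and 464 in irradiated cells. PSME3IP1 had eIF4E signals of 238, 204 and 263 in untreated and 174, 260 and 286 in irradiated cells. Its arrays did not overlap, at -1.02 ± 0.14 (adjusted p = 8.51e-06), which became 1.46 with rescaling to the hybridization controls. PSMC3IP had IgG signals of 386, 448 and 480 in untreated and 367, 470 and 556 in irradiated cells. PSMC3IP had eIF4E signals of 348, 323 and 288 in untreated and 336, 343 and 306 in irradiated cells. Its arrays did not overlap either, at -0.45 ± 0.12 (adjusted p = 0.00353), but the call was lost when both its probe sets were averaged (-0.18, adjusted p = 0.192), and the sign turned to 2.03 with that rescaling.

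Untreated and irradiated cells, which share no arrays, gave similar differences. In untreated cells 24 members were higher and 6 lower, against 27.2% and 31.7% of all genes, with a median of 0.43. In irradiated cells 24 were higher and 7 lower, against 27.2% and 32.3%, with a median of 0.46. The antibodies did not overlap for 36 members in untreated cells (66.7% of all genes) and for 30 in irradiated cells (62.4%). Of the 42 genes 38 had the same sign in both, 23 were higher in both, 6 were lower in both and 0 were called opposite ways. The 3 called in 1 treatment only were PSMB1 and PSMC1 in irradiated and PSMD10 in untreated cells, and 10 were called in neither. Over the members both sets of differences correlated with Pearson's r of 0.971 and Spearman's rho of 0.966, a description over 42 genes measured on the same arrays. PSMC4 differed by 1.86 in untreated and 1.52 in irradiated cells, PSMD8 by 1.54 and 1.53, PSMB9 by 1.29 and 1.32, and PSMD1 by -1.26 and -1.35, the last being positive in the mean after rescaling to the hybridization controls. The count of lower members fell to 3 in untreated cells without untreated eIF4E replicate 2, and to 4 in irradiated cells without irradiated eIF4E replicate 1, 2 or 3.

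Several probe sets of a gene read different parts of its transcripts, and 16 members had more than 1 above the filter. Tested one by one, 35 of 63 probe sets were higher, 14 lower and 14 not called over both treatments. The share over all probe sets tested in this way is not given here. With 1 probe set a gene, 32.5% of all genes tested were higher and 38.2% lower. PSME3, a nuclear activator, was the 1 gene with probe sets called in both directions, 1 of 16 members (6.25%) against 250 of 2513 genes (9.95%). Its brightest regular probe set had IgG signals of 585, 540 and 375 in untreated and 382, 511 and 618 in irradiated cells. The eIF4E signals of that probe set were 659, 571 and 671 in untreated and 722, 533 and 579 in irradiated cells. It overlapped and did not pass, at 0.32 ± 0.14 (adjusted p = 0.0527), and passed without untreated IgG replicate 1 (0.38), without irradiated IgG replicate 3 (0.40) or without irradiated eIF4E replicate 2 (0.37). A second had IgG signals of 432, 309 and 348 in untreated and 181, 448 and 306 in irradiated cells, with eIF4E signals of 164, 162 and 228 and of 158, 183 and 186. It was lower, at -0.81. Another, higher one had IgG signals of 396, 567 and 452 in untreated and 377, 601 and 344 in irradiated cells, with eIF4E signals of 623, 713 and 846 and of 522, 785 and 749. Its difference was 0.63. The last had IgG signals of 757, 658 and 530 in untreated and 599, 590 and 753 in irradiated cells, with eIF4E signals of 889, 672 and 796 and of 988, 692 and 767, a difference of 0.30. The probe sets of PSME3 thus gave no single direction for the gene.

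Probe sets also lay over 1 log2 unit apart in PSMF1, PSMD12 and PSMD9, so in 4 of 16 members with PSME3, against 26.9% of genes with several probe sets. PSMF1 had a dimmer probe set that was higher by 1.84. This probe set had IgG signals of 136, 243 and 99.2 in untreated and 182, 207 and 124 in irradiated cells. The same probe set had eIF4E signals of 469, 689 and 735 in untreated and 491, 659 and 644 in irradiated cells. This probe set of the inhibitor was thus well separated by antibody, unlike the brighter one at -0.15. PSMD12 had a dimmer probe set that was lower, at -1.31, with IgG signals of 702, 784 and 923 in untreated and 692, 805 and 707 in irradiated cells. The eIF4E signals of that probe set were 329, 296 and 308 in untreated and 283, 299 and 285 in irradiated cells. All were under every IgG value, whereas the brighter probe set of PSMD12 overlapped at 0.15. As means of their probe sets PSMF1 was higher at 0.84 (adjusted p = 5.3e-06) and PSMD12 lower at -0.58 (adjusted p = 5.72e-05). PSMD9's dimmer probe set did not pass, at -0.19, and its signals were 105 or less on all 12 arrays. A second probe set of PSMC2 was lower at -0.35, where the brighter one was at 0.14. Both probe sets of PSMD1 (-1.30 and -0.68) and all 3 of PSME4 were lower in the deposited scaling. All probe sets above the filter of PSMA1, PSMA2, PSMA7, PSMB1 and PSMB2 were higher, and both of PSMB4 were not called.

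**Figure D4:**
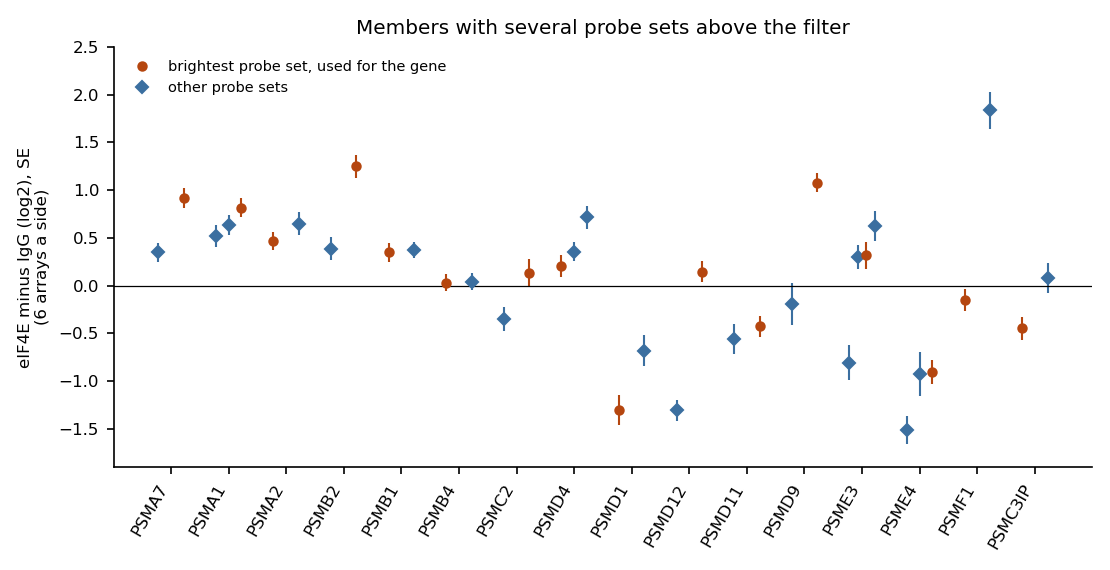
Difference between eIF4E and IgG precipitates over both treatments (log2, deposited scaling, with the standard error of the fit and 6 arrays a side) for every probe set above the filter of the 16 members that have several. Round points mark the probe set that stands for the gene, the brightest of those not ending in _x_at, and diamonds the others. In PSMA1, PSMA7 and PSME3 a diamond is a brighter probe set ending in _x_at, although the key calls the round one brightest. PSMF1 reaches from -0.15 to 1.84 and PSMD12 from -1.31 to 0.15, whereas all probe sets of the core genes are at 0.03 or above.

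Irradiation changed no proteasome gene past the threshold. Within eIF4E precipitates 0 of 7178 genes passed (0.0%) in limma, and 82 (1.14%) had an unadjusted p under 0.05, of which 0 were members. Within IgG precipitates 0 genes passed (0.0%), and 475 (6.62%) had an unadjusted p under 0.05, among them 2 members. For the difference of both effects 0 passed (0.0%), and 216 (3.01%) had an unadjusted p under 0.05, with 0 members among them. Differences of the members ran from -0.24 to 0.24 within eIF4E and from -0.26 to 0.45 within IgG precipitates. The outermost ends of the members' 95% intervals were -0.57 and 0.72 within eIF4E and -0.69 and 0.87 within IgG precipitates, and single members had narrower ones.

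The members with the smallest p are named although they did not pass. Within eIF4E precipitates these were PSMD14 at 0.17 (95% interval -0.06 to 0.40), PSMD6 at 0.21 (-0.08 to 0.50) and PSMD11 at -0.24 (-0.57 to 0.09), each with an adjusted p of 1.00. Within IgG precipitates they were PSMD3 at 0.45 (0.09 to 0.80, adjusted p = 0.631), PSMC2 at 0.45 (0.04 to 0.87, adjusted p = 0.691) and PSMD6 at 0.26 (-0.03 to 0.55, adjusted p = 0.731). PSMD3 signals were 832, 635 and 859 in untreated and 1160, 1179 and 852 in irradiated IgG precipitates, so 1 irradiated array lay inside the untreated range. PSMC2 signals were 4652, 5980 and 3781 in untreated and 8171, 4991 and 6636 in irradiated IgG precipitates, which overlap as well. For the difference of both effects they were PSMD3 at -0.44 (-0.94 to 0.06), PSMA5 at -0.29 (-0.71 to 0.14) and PSMB10 at -0.31 (-0.79 to 0.17), each with an adjusted p of 0.999. Within eIF4E precipitates PSMD14 signals were 5301, 5354 and 5191 in untreated and 5974, 5836 and 6004 in irradiated cells, without overlap. The 95% intervals rest on a spread shared by all 4 groups and take no account of pairing between arrays. Untreated and irradiated arrays did not overlap for 3 of 42 members within eIF4E precipitates, against 675 of 7178 genes. Within IgG precipitates this held for 3 members, against 623 genes.

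**Figure D5:**
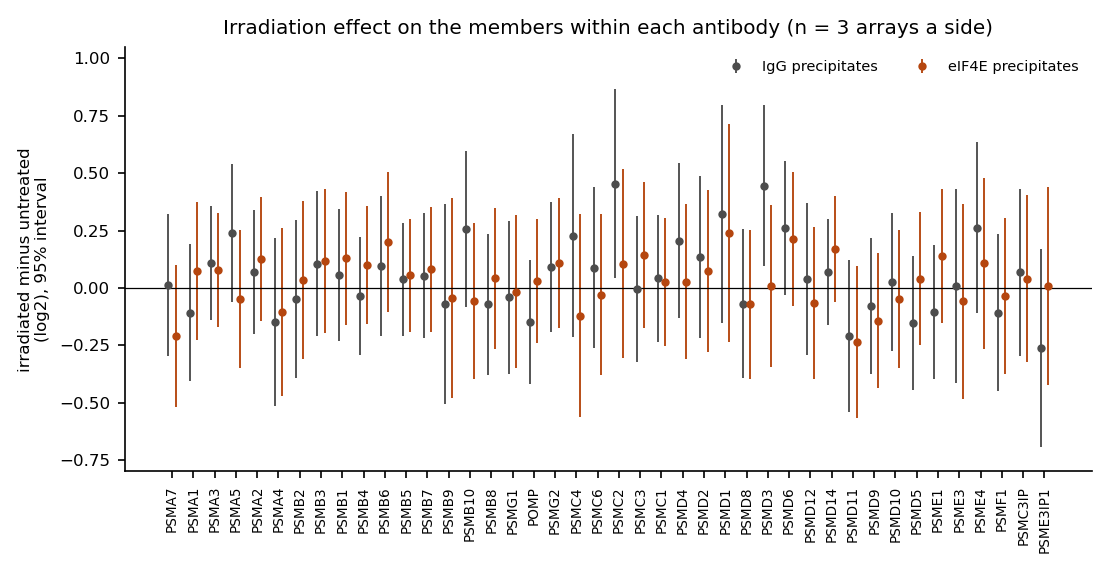
Irradiated minus untreated cells for each of the 42 genes, within IgG (grey) and within eIF4E precipitates (red), with 95% intervals on the log2(signal + 16) scale and 3 arrays a side. All eIF4E intervals include 0. Only PSMD3 and PSMC2 in IgG precipitates have intervals that do not, and neither passed after adjustment.

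Genes that work with the proteasome were taken from lists of known function and are described by their counts over both treatments, against the 32.5% higher and 38.2% lower among all genes. The COP9 signalosome, a complex built like the lid that removes NEDD8 from cullin ligases, had 8 of 9 tested genes higher and 0 lower (median 0.60). Its upper end was GPS1 at 1.30 and COPS7A at 1.25, and its lower end among those that passed was COPS6 at 0.35 and COPS3 at 0.41. In the NEDD8 and cullin list 5 of 13 were higher and 5 lower. The small RING subunits RNF7 at 1.84 and RBX1 at 1.67 stood at one end, and the cullins CUL4B at -1.62 and CUL5 at -1.52 at the other. Of 11 proteasome-associated proteins 5 were higher and 4 lower. The ubiquitin receptor ADRM1 was at 1.46 and SEM1, a small subunit of the regulatory particle, at 0.79, while ECPAS, an adaptor of the whole particle, was at -1.28 and the ubiquitin ligase UBE3A at -1.18. The lower values named here and in the next paragraph are relative to the rest of the array, since 0 of 7178 genes were lower after rescaling to the hybridization controls.

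Of 13 genes of the p97 segregase and its cofactors, which extract ubiquitinated proteins for the proteasome, 6 were higher and 6 lower. The highest were DERL2 at 0.93 and UFD1 at 0.85, and the lowest FAF2 and UBXN4, both at -1.49. Of 5 ubiquitin shuttle receptors, 3 were lower and 0 higher, with UBQLN4 at -1.16 and NBR1 at -1.07 lowest. UBQLN4 was dim and its arrays overlapped, with signals of 41.7 to 272 with IgG and 33.4 to 61.0 with eIF4E. Of 7 genes of the NRF1 pathway, which drives transcription of proteasome genes, 1 was higher and 3 lower: NGLY1 was at 0.51, NFE2L1 itself at -1.33 and SEL1L, which acts in its turnover, at -1.78. Of 11 genes that load peptides onto antigen-presenting molecules 4 were higher and 5 lower. The chaperone CALR at 1.46 and the transporter subunit TAP2 at 0.54 were highest, and the peptidase ERAP1 at -1.84 and HLA-E at -0.90 lowest. CALR was dim, with signals of 78.7 to 161 with IgG and 281 to 483 with eIF4E. TAP1, also a transporter subunit, was lower at -0.34, and arrays of both antibodies overlapped for TAP1 and for TAP2. Of 3 tested genes for ubiquitin and its activating enzymes, UBA6 was higher at 0.39, UBB lower at -0.58 and UBA1 not called. The group means of UBA1 lay in opposite directions in the treatments, but it was not called in untreated cells. No gene passed for the difference of irradiation effects. Its mean signal was 841 with IgG and 1074 with eIF4E in untreated cells, but 1367 and 970 in irradiated cells. In irradiated cells taken alone, 2 of these 3 genes were lower and 0 higher, against 1 lower and 0 higher in untreated cells.

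Promoter letters and gene length were set beside the differences as descriptions. The 13 members with the antioxidant response element core had a median difference of 0.73, with 10 of them above 0, and the 24 without it a median of 0.33, with 16 above 0. Both ranges were wide: members with the element ran from PSMD1 at -1.30 to PSMC4 at 1.69, and members without it from -1.02 to 1.53. Members with CCAAT had a median of 0.49 (19 genes) and those without it 0.21 (18 genes). The span of a gene in RefSeq (GRCh38.p14) correlated with its difference at Pearson's r of -0.35 and Spearman's rho of -0.30 over the 42 members, against -0.46 and -0.47 over 7177 tested genes. Of the 14 members with the shortest spans 10 were higher and 2 lower (median 0.76), and of the 14 with the longest 7 were higher and 4 lower (median 0.34). The longest include the lower genes PSMD1 and PSME4. Within the 16 core genes the span and the difference correlated at 0.004 (Pearson) and -0.20 (Spearman), and within the 12 PSMD genes at -0.55 and -0.45. The part of gene length, Alu signal and the 3′ to 5′ ratios in these differences was not tested.

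The platform annotation held no probe set of a single gene for 9 further genes of the proteasome: PSMA6, PSMA8, PSMB11, PSMC5, PSMD7, PSMD13, PSME2, PSMG3 and PSMG4. They were not analysed here. The ATPase base is therefore described without PSMC5 and the alpha ring without PSMA6.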

How the data were processed

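RNA from 12 precipitates of MDA-MB-231 cells (4 groups of 3) was measured on Affymetrix arrays. The authors deposited 1 signal intensity per probe set and array on a linear scale, made with MAS5 per the submitters' processing notes (version not given in the sources used here). No further scaling was applied, since each array's mean with 2% trimmed at either end was 499.8 to 499.9, and no arrays were identical (0 pairs). The number of arrays limits the precision.

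Of 22277 probe sets, 62 were controls. Platform annotation gave 19064 probe sets 1 gene symbol, 1043 several and 2108 none, and 19058 symbols were updated through their gene identifier to RefSeq (GRCh38.p14). Each gene was represented by its brightest probe set, and by one ending in _x_at only failing any other. The 7178 genes at or above the 40th percentile of mean log2 signal (57.4 as a signal) were tested. The model, in limma 3.58.1 (R 4.3.3; lmFit, eBayes with trend), took log2(signal + 16) and 4 group means from all 12 arrays. P-values were adjusted by Benjamini-Hochberg across these genes, with a threshold of 0.05. On this scale dim genes change less than their signal does. The fit was tested on simulated data. Probe sets were also tested one by one in the same way, over the 11438 probe sets above their own filter. Array controls were compared with exact permutation tests (scipy 1.17.1), and figures drawn with matplotlib 3.10.9.

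The member genes, the lists of related genes and the tests were chosen with earlier results of these data known. Values on every array are given for the 3 members with the largest and the 3 with the smallest difference over both treatments, for the members at either end of each class, and for every probe set of a gene called in both directions. The signals of PSMD3, PSMC2 and PSMD14 and those of the second probe sets of PSMF1 and PSMD12 were added after their values were seen. In the irradiation comparisons the 3 members with the smallest p are named, and of each list the 2 genes at either end among those past the threshold. UBA1 and TAP1 are named outside this rule.

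Same-numbered arrays of untreated and irradiated eIF4E precipitates deviated together (correlations over genes of 0.374, 0.208 and 0.181) and were taken as paired from this alone. Every one of the 5 remaining group pairs had a number whose correlation was under 0.1. Replicate 1 also stood apart in all 4 groups, with a bioB to bioC hybridization control ratio of 0.373 to 0.443, against 0.0269 to 0.0523 on the other arrays, so a fit without replicate 1 of every group was run beside the block. Alternatives were quantile normalization, median centring, rescaling to the hybridization controls, pseudocounts of 1 and 64, a filter at the 60th percentile or none, no variance trend, only the groups compared, each probe set by itself, array quality weights, the replicate block, probe set means and the omission of arrays.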

Additional observations from a re-analysis of the deposited data

How the results depend on the processing

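Under the 25 alternatives other than rescaling to the hybridization controls, 24 of the 25 higher members and 5 of the 7 lower ones kept their direction and their call in the mean of both treatments, and 4 of the 10 others were never called. The exceptions were PSMB1 and PSMC3IP with probe set means (0.08 and -0.18) and PSMC1 with median centring (-0.21). The mean of PSMB1 includes a probe set under the filter. Rescaling to the hybridization controls, whose signal differed between the antibodies, raised the count of higher members to 41 in untreated cells, 41 in irradiated cells and 42 in the mean, and left 0, 0 and 0 lower. It turned the sign of PSMC1 (2.27), PSMC3 (2.57), PSMC3IP (2.03), PSMD1 (1.28), PSMD11 (2.17), PSMD14 (2.55), PSMD2 (2.14), PSMD5 (2.35), PSME3IP1 (1.46), PSME4 (1.64) and PSMF1 (2.39). Median centring gave 3 lower members in untreated and 4 in irradiated cells, and turned PSMC3 to 0.094 and PSMD14 to 0.065. Other sign changes were all in members with no call: PSMB4 with quantile normalization (-0.024) and without replicate 1 of every group (-0.023), PSMC3 with array quality weights (0.045) and without replicate 1 of every group (0.13), PSMD12 with array quality weights (-0.00105) and probe set means (-0.58), PSMC2 (-0.11) and PSMF1 (0.84) with probe set means. With single arrays left out, PSMB4 ran from -0.016 to 0.064 and PSMC3 from -0.069 to 0.053, and the count of lower members from 3 to 5 in untreated and from 4 to 5 in irradiated cells. The cause of these shifts was not tested.

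With the replicate block, 27 members were higher and 7 lower in the mean of both treatments, the added calls being PSMC6 (0.27) and PSMD4 (0.21), and 0 passed for irradiation within eIF4E precipitates, the groups treated as paired. Without replicate 1 of every group, 26 members were higher and 7 lower. Dim probe sets and 3 arrays a group limit what could be detected.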
